A study of Rattus norvegicus with 93 samples.

Results

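A set of 7 genes of neutrophil recruitment, chosen by name and found by symbol in the platform annotation, was followed in healing skull bone of rats. They are the ligands Cxcl1, Cxcl2, Cxcl3, Cxcl6, Ppbp and Ccl20 and the receptor Cxcr2, and all 7 of 7 listed genes were found among 15975 measured genes. Untreated circular holes of 4 or 8 mm were drilled through the calvaria of male rats aged 12 weeks, the dura mater was left in place, and the tissue of each hole was collected 1, 3, 5, 7, 10, 14 or 21 days later. The 8 mm hole is the critical-size defect of the design and the 4 mm hole the one below that size. Each of 93 defects gave RNA for 1 array, a rat whole-genome Agilent chip read in 1 colour. At days 1, 3, 5, 7, 10, 14 and 21 there were 3, 8, 11, 5, 4, 5 and 6 arrays of 4 mm defects, and 5, 11, 12, 5, 6, 6 and 6 arrays of 8 mm defects. No array of intact bone was used, so every change below is relative to day 1 or to another day.

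Chemokines are small secreted proteins that guide white blood cells along a gradient. Cxcl1, Cxcl2, Cxcl3 and Cxcl6 are made by macrophages, fibroblasts, endothelium and epithelium after injury, signal through Cxcr2 and bring neutrophils out of the blood. Ppbp, platelet basic protein, is stored in platelet granules and is cut to a peptide that also binds Cxcr2. Ccl20 signals through another receptor, Ccr6, and attracts dendritic cells and lymphocytes that make interleukin 17, a cytokine that in turn induces neutrophil chemokines. Transcription of several of these chemokines is switched on by NF-kappaB, which acts downstream of interleukin 1, tumour necrosis factor and bacterial sensors.

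Cxcl2, Cxcl1, Cxcl3, Pf4, Ppbp and Cxcl6 follow each other on rat chromosome 14 in the RefSeq annotation of GRCr8, with 1 uncharacterised coding gene between Cxcl1 and Cxcl3. Ccl20 and Cxcr2 lie on chromosome 9. RefSeq promoter windows, from 250 bases before to 50 bases after the annotated start, were matched for 6 of the 7 genes; none was matched for Cxcl3. The windows of Cxcl1, Cxcl2, Cxcl6 and Ccl20 are shown because they hold matches to a short kappaB-like pattern, GGGA and CC with any 4 bases between them, searched on both strands; capitals mark the matches, and overlapping matches run together. The windows lie at chr14:17479272-17479571 on the minus strand for Cxcl1, chr14:17467206-17467505 on the minus strand for Cxcl2, chr14:17596368-17596667 on the minus strand for Cxcl6 and chr9:91836909-91837208 on the plus strand for Ccl20, each printed 5′ to 3′ along its gene.
Cxcl1: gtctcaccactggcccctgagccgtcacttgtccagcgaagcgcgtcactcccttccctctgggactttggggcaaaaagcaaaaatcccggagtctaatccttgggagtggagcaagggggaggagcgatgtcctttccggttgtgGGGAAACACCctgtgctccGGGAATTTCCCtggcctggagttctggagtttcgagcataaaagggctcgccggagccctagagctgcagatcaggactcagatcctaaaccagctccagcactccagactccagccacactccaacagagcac
Cxcl2: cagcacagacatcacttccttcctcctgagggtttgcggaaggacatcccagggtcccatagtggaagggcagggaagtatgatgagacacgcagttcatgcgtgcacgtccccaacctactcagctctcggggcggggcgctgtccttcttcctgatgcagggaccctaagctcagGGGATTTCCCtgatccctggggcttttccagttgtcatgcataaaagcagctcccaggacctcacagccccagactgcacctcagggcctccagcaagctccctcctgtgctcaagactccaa
Cxcl6: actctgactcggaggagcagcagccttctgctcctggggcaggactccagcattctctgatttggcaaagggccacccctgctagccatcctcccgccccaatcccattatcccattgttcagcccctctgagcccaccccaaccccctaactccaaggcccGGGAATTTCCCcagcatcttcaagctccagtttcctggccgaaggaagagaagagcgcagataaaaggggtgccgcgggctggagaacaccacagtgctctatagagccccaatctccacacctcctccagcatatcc
Ccl20: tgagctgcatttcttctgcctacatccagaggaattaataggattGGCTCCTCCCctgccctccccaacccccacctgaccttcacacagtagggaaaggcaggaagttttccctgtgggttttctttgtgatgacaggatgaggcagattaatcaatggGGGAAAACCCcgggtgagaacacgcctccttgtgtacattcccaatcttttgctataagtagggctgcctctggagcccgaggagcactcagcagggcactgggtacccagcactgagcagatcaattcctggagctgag

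Cxcl1 had matches on its own strand that began at positions -103 and -84 from the start, Cxcl2 at -73, Cxcl6 at -88 and Ccl20 at -90, and Ccl20 had another at -205 on the opposite strand. Reverse-strand matches overlapped those at -84, -73 and -88. The matches at -84 in Cxcl1 and at -88 in Cxcl6 were the same 10 letters, GGGAATTTCC. The looser pattern was present in 19.3% of 33469 RefSeq promoter windows of the same length, and the exact 10 letters in 25 of them, or 0.0747%. These 10 letters were counted because Cxcl1 and Cxcl6 share them, and the windows of both are in the count, so it is no independent evidence. The windows of Ppbp and Cxcr2 held 0 matches. These are matches of letters only.

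The deposited values are ratios in which most probes have a median of 1 over the arrays, and 0.01 (log2 -6.64) is the lowest value in the table, called the floor here. Values are given as log2 of that ratio. A level therefore compares one probe between arrays and cannot be compared between genes. Differences are log2 differences of means over both sizes weighted equally, ± SE, from 1 limma model of all 14 groups, with p-values adjusted by the Benjamini-Hochberg method over all 15975 genes and a threshold of 0.05. In whole tissue, fewer cells of a type and less RNA per cell cannot be told apart. The 7 members differed in how often they were at the floor: Cxcl1 and Cxcl2 on 2 of 93 arrays each, Cxcl3 on 3, Ppbp on 1, Cxcr2 on 6, Ccl20 on 8 and Cxcl6 on 23.

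Between 10 and 23.8% of all probe values on an array were at the floor, and 7 arrays stood apart with low levels over all probes: 4 mm rat 13 and 8 mm rat 11 of day 1, 8 mm rats 18 and 20 of day 3, and 4 mm rat 10 and 8 mm rats 10 and 11 of day 10. Another 10 arrays had high levels of brain markers. The mean level of bone markers was -2.91 (4 mm) and -2.45 (8 mm) at day 1 and 0.86 and 1.98 at day 21, and 0 of 6 were at the floor throughout a group. Nothing in the labels says whether the 4 mm and 8 mm holes with the same rat number were in 1 animal.

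Cxcl1, Cxcl2, Cxcl3 by the probe used and Ccl20 were high on day 1 and fell by day 5. Of the 7 genes, 2 were lower on day 3 than on day 1 (Cxcl2 and Cxcl3), where 0.601% of all genes were lower. On day 5, 6 of 7 were lower, against 2.03% of all genes, and all but Cxcl6 were among them. At days 7, 10, 14 and 21, 5 of 7 were lower, against 4.95, 6.07, 7.85 and 12.1% of all genes. Cxcr2 made up the 5 with Cxcl1, Cxcl2, Cxcl3 and Ccl20 at day 7, and Cxcl6 took its place from day 10. The median change of the 7 genes was -1.85, -3.20, -3.01, -4.43, -4.46 and -5.10 at days 3, 5, 7, 10, 14 and 21, and the median of all genes was 0.23, 0.38, 0.33, 0.03, 0.07 and -0.05. All of these comparisons share the same 8 arrays of day 1. The count on day 3 was 0 after quantile normalization, and also 0 without 4 mm rat 17, 4 mm rat 18 or 8 mm rat 16 of day 1.

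**Figure D1:**
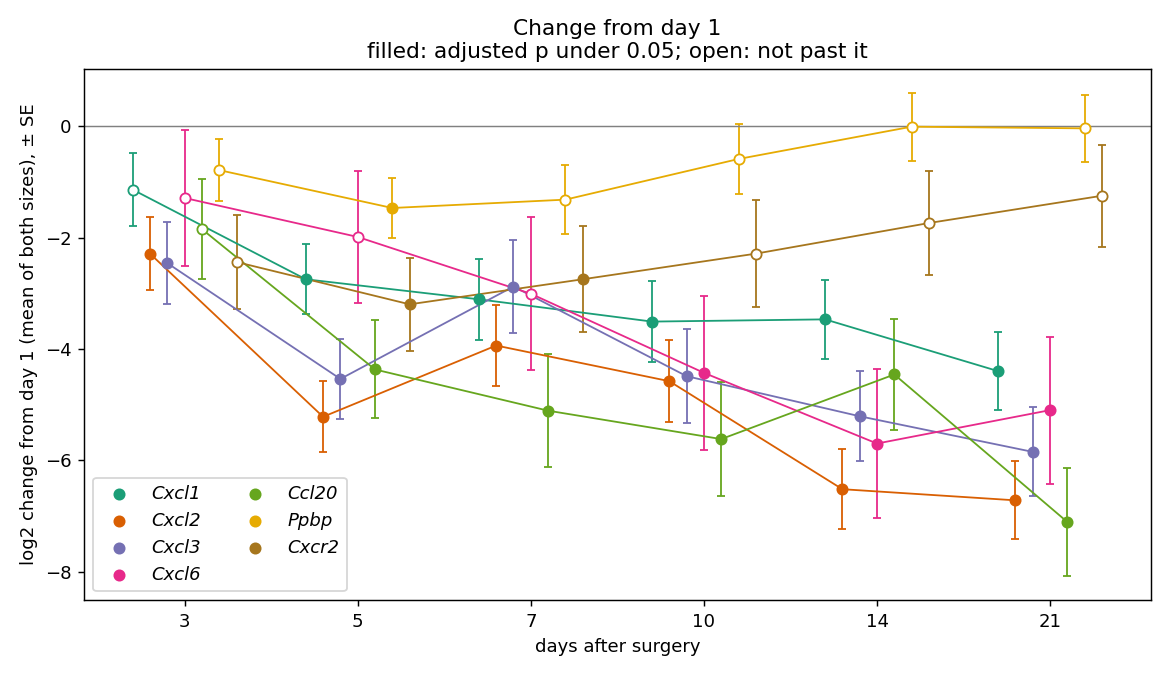
Log2 change from day 1 (mean of both defect sizes, ± SE, from the limma model) on the vertical axis against days after surgery for the 7 genes; filled points have an adjusted p under 0.05 and open points do not. Cxcl1, Cxcl2, Cxcl3 and Ccl20 stay filled from day 5 to day 21, Cxcl6 is filled from day 10, Cxcr2 at days 5 and 7 and Ppbp at day 5.

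Cxcl3 counts in these numbers through 1 of its 2 probes, and the probes disagree. The planned rule took the probe of a gene with the largest interquartile range; for Cxcl3 that probe was at the floor on 52 of 93 arrays. After the 2 probes had been seen, the rule was changed for every gene to the probe at the floor on the fewest arrays. By the planned rule 1, 5, 4, 4, 4 and 4 of the 7 genes were lower than on day 1 at days 3 to 21, and Cxcl3 was then higher at day 21. The same rule gave 3 genes lower at day 5 than at day 3, and 4 and 5 genes that differed between days in 4 and 8 mm defects. Statements on Cxcl1, Cxcl2, Cxcl6, Ccl20, Ppbp and Cxcr2 rest on 1 probe each and are the same under both rules, apart from small shifts in adjusted p.

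Cxcl2, also called macrophage inflammatory protein, is a potent neutrophil attractant. On day 1 its log2 values in 4 mm defects were 3.03, 5.56 and 5.00, and in 8 mm defects 3.83, 5.00, 4.32, 3.64 and 8.12. By day 3 the 4 mm arrays had a lowest value of 1.16, a median of 2.36 and a highest of 5.23, and the 8 mm arrays had -2.71, 2.15 and 5.72. Day 3 overlapped day 1, with 6 of 19 arrays at or above the lowest of day 1. On day 5 the lowest, median and highest values were -1.58, -0.27 and 1.34 in 4 mm defects and -2.65, -0.56 and 0.96 in 8 mm defects, so that all 23 arrays lay below every array of day 1. The change from day 1 was -2.29 ± 0.65 at day 3 (limma adjusted p = 0.0146) and -5.22 ± 0.64 at day 5, a 37.2-fold lower level (limma adjusted p = 2.39e-10). From day 3 to day 5 alone it was -2.93 ± 0.47 (limma adjusted p = 8.19e-06). Between day 1 and day 21 Cxcl2 fell by 6.72 ± 0.70 on the log2 scale (limma adjusted p = 1.47e-12), and no array of day 14 or day 21 reached the lowest of day 1. The day 3 call was lost after quantile normalization (adjusted p = 0.172), with only the groups compared in the fit (0.0841) and without 4 mm rat 17 (0.0684), 4 mm rat 18 (0.0592) or 8 mm rat 16 (0.069) of day 1.

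For Cxcl2 and Cxcl3 the means of day 7 lay above those of day 5, by differences that did not pass. At day 7 the Cxcl2 values in 4 mm defects were 1.48, 0.72, 2.04, 0.94 and 0.12, and in 8 mm defects -0.70, -0.97, 1.24, 0.31 and 2.99. These 10 arrays overlapped those of day 5, with 8 of 10 above the day 5 mean. The difference from day 5 was 1.28 ± 0.57 (95% interval 0.14 to 2.42) and did not pass the threshold (limma adjusted p = 0.137). For Cxcl3 it was 1.66 ± 0.65, with 10 of 10 arrays above the day 5 mean (limma adjusted p = 0.0831). In limma 0 of the 7 genes changed between day 5 and day 7, where 11.2% of all genes changed in either direction and 2 of the 7 had an unadjusted p under 0.05. The count was 2, Cxcl2 and Cxcl3, after quantile normalization, with values under 0.25 raised to 0.25, or with only the groups compared in the fit. Between days 5 and 7 the calcium-binding proteins S100a8 and S100a9, which fill neutrophil cytoplasm, rose by 1.42 ± 0.44 and 1.23 ± 0.39 (limma adjusted p = 0.0255 and 0.0265). In all, 4 of 15 measured neutrophil markers rose, where 5.43% of all genes were higher. Whether the 2 movements belong together was not tested.

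Cxcl3, a close relative of Cxcl1 and Cxcl2 in sequence and position, fell in the same days by the probe used. Its values on day 1 were 2.44, 4.63 and 3.56 in 4 mm defects and 2.90, 4.62, 3.79, 2.69 and 7.19 in 8 mm defects. On day 5 the lowest, median and highest were -2.04, -0.77 and 1.72 in 4 mm defects and -1.32, -0.61 and 0.97 in 8 mm defects. No array of day 5 reached the lowest of day 1. The change was -2.46 ± 0.74 at day 3 (limma adjusted p = 0.023), -4.54 ± 0.72 at day 5 (4.85e-07) and -5.85 ± 0.80 at day 21 (1.13e-08). Without 4 mm rat 17, 4 mm rat 18 or 8 mm rat 16 of day 1 the day 3 p rose to 0.0909, 0.0608 and 0.0866, and after quantile normalization to 0.13. At day 10 the change was -4.49 ± 0.84, and without 4 mm rat 10, an array of low level with Cxcl3 at the floor, -3.42.

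The second Cxcl3 probe gave the opposite picture. It was at the floor on all 8 arrays of day 1, on 11 of 19 of day 3, on 13 of 23 of day 5 and on 4 of 12 of day 21. Where it was above the floor it reached at most 3.02, on a 4 mm array of day 7. Its change from day 1 was 2.94 ± 1.51 at day 5 (limma adjusted p = 0.162) and 5.08 ± 1.67 at day 21 (0.0157). Over 93 arrays the log2 values of both probes had a Pearson r of -0.13. Both probes carry the same transcript accession in the platform annotation, and which of them reports Cxcl3 was not tested. With the mean of both probes no Cxcl3 change from day 1 passed the threshold.

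**Figure D2:**
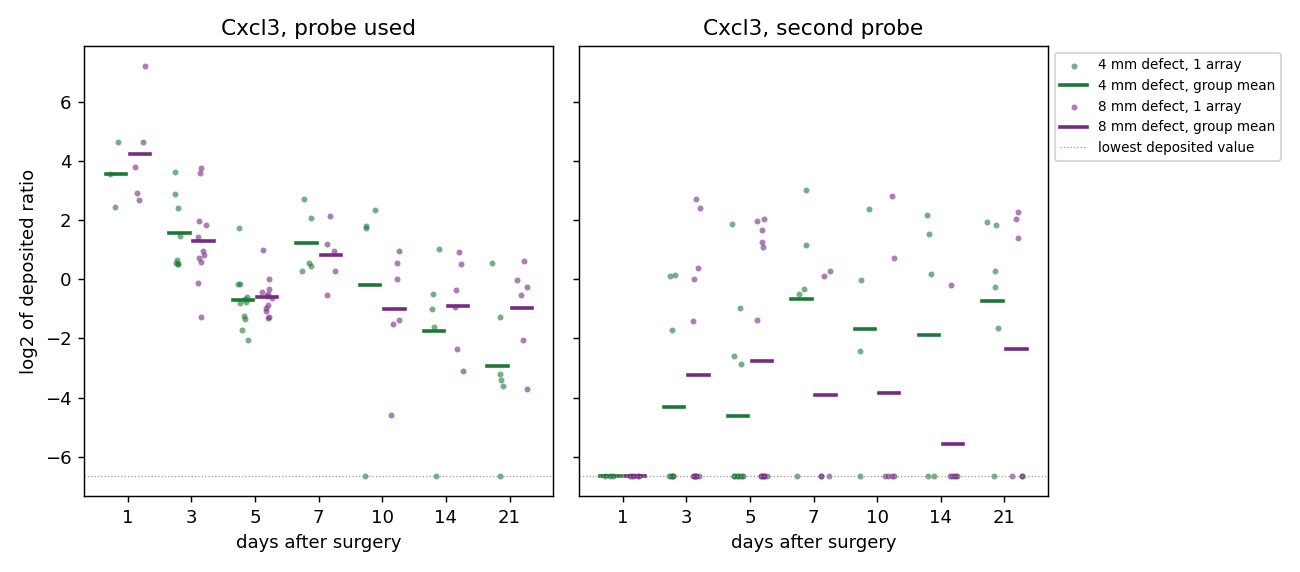
Log2 of the deposited ratio for both Cxcl3 probes (vertical axis) by day after surgery; each point is 1 array, green for 4 mm and purple for 8 mm defects, bars are group means and the dotted line is the lowest deposited value. The probe used is above 2.4 on every day 1 array, and the second probe is at the lowest value on all 8.

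Cxcl1, the founding member of this ligand group and a product of stressed fibroblasts and endothelium, fell by day 5. Day 1 values were 1.79, 2.63 and 1.98 in 4 mm defects and 1.11, 3.74, 2.29, 1.05 and 5.28 in 8 mm defects. On day 3 the lowest, median and highest were 0.28, 1.48 and 2.53 in 4 mm defects and -3.35, 1.72 and 2.27 in 8 mm defects. Most arrays of day 3 thus overlapped day 1, and the difference of -1.14 ± 0.65 did not pass (limma adjusted p = 0.372). On day 5 the lowest, median and highest were -1.69, -0.51 and 1.11 in 4 mm defects and -2.25, 0.07 and 1.31 in 8 mm defects. The change from day 1 was then -2.75 ± 0.63 (limma adjusted p = 0.000499), with 3 of 23 arrays still at or above the lowest of day 1. At day 21 the 4 mm arrays ran from the floor to -1.16 with a median of -1.62, and the 8 mm arrays from -2.67 to -0.03 with a median of -1.21. Every array of day 21 was below every array of day 1, and the change was -4.40 ± 0.70, a 21.1-fold lower level (limma adjusted p = 6.57e-07). At day 10 it was -3.51 ± 0.73, and -2.61 without 4 mm rat 10, where Cxcl1 was at the floor.

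Ccl20, the ligand of Ccr6, was high on day 1 and fell by day 5. Its values on day 1 were 1.16, 4.70 and 4.46 in 4 mm defects and 3.38, 4.83, 5.71, 5.59 and 3.51 in 8 mm defects. By day 3 the lowest, median and highest were 0.03, 2.50 and 3.90 in 4 mm defects, and the 8 mm arrays had a median of 2.32 and a highest value of 3.51. One array of day 1, 4 mm rat 13, was low, and the other 7 arrays were all above 3.3. The difference of -1.85 ± 0.90 at day 3 did not pass (limma adjusted p = 0.259). On day 5 the lowest, median and highest were -6.64, 0.22 and 3.39 in 4 mm defects and -2.25, -0.01 and 0.94 in 8 mm defects, and from day 1 Ccl20 fell by 4.37 ± 0.88, or 20.6-fold (limma adjusted p = 6.27e-05). From day 3 to day 5 alone the change was -2.52 ± 0.65 (limma adjusted p = 0.00988).

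The later course of Ccl20 was less even than that of Cxcl2. On day 14 the values in 4 mm defects were -0.09, -0.51, -0.70, 0.34 and -0.77, and in 8 mm defects they ran from -2.88 to 0.68 with a median of -0.26. On day 21 the 4 mm arrays had a lowest value at the floor, a median of -4.08 and a highest of -0.36, and the 8 mm arrays ran from the floor to 1.23. Day 21 held both the arrays at the floor, 5 of 12, and 1 array above the lowest of day 1. The change from day 1 was -4.46 ± 0.99 at day 14 (limma adjusted p = 0.00035) and -7.11 ± 0.97 at day 21 (1.24e-08); with values under 0.25 raised to 0.25, which shortens the distance to the floor, the latter was -5.17. From day 14 to day 21 the difference was -2.65 ± 0.87 and did not pass (limma adjusted p = 0.11), and without the 7 arrays of low level it did. Ccr6 itself, with 0.60 ± 0.51 and -1.63 ± 3.00 (SD, n = 3 and 5) at day 1 in 4 and 8 mm defects, had an adjusted p of 0.579 or more against day 1 on every later day.

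Cxcl6, a granulocyte attractant named Cxcl5 in the platform annotation and updated through its accession, was the member most often at the floor. It first passed against day 1 at day 10. Day 1 values were 2.51, 2.47 and 1.54 in 4 mm defects and 0.90, 0.00, 0.81, 0.54 and 1.62 in 8 mm defects. On day 5 it ran from the floor to 2.92 with a median of 0.48 in 4 mm defects, and from the floor to 2.42 with a median of 0.31 in 8 mm defects. These ranges enclosed day 1, and the difference was -1.99 ± 1.19 (limma adjusted p = 0.248). At day 7 it was -3.01 ± 1.37 (limma adjusted p = 0.0968), where Cxcl1 had -3.11 ± 0.73 and passed. Whether Cxcl6 fell later than the other ligands was not tested. On day 14 the 4 mm values were -6.64, -6.64, 0.06, -6.64 and -6.64, and the 8 mm arrays ran from the floor to 2.46. On day 14, 7 of 11 arrays were at the floor, and on day 1 none. The change was -4.43 ± 1.38 at day 10 (limma adjusted p = 0.0157), -5.70 ± 1.34 at day 14 (0.00074) and -5.10 ± 1.32 at day 21 (0.00186). With values under 0.25 raised the sizes were -2.40, -2.69 and -2.59, and without the 7 arrays of low level the day 10 call was lost (adjusted p = 0.0535).

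Ppbp, the platelet chemokine, did not follow the other ligands. On day 1 its values were -0.99, 0.11 and 2.15 in 4 mm defects and 2.53, 0.14, 1.44, 1.15 and 1.02 in 8 mm defects. On day 5 the lowest, median and highest were -2.41, -0.59 and -0.05 in 4 mm defects and -1.33, -0.46 and 1.05 in 8 mm defects. Day 5 overlapped the lower part of day 1 and reached below it, and the change of -1.47 ± 0.54 passed (limma adjusted p = 0.0375). It no longer passed without 4 mm rat 17 (0.0515), 4 mm rat 18 (0.239), 8 mm rat 11 (0.0983) or 8 mm rat 13 (0.0509) of day 1, or without the 7 arrays of low level (0.0602). On day 21 the difference from day 1 was -0.04 ± 0.60, with a 95% interval from -1.23 to 1.15. It includes 4 mm rat 15 at the floor, where the next 4 mm value was 0.35. The 4 mm mean of day 21 was -0.06 and the median 0.88, and the difference without that array was not computed. The 8 mm group of day 21 had the highest mean of all 14 groups (1.66 ± 0.56, SD, n = 6).

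Platelet markers moved on some of the same days. By day 5, 3 of 5 measured markers fell, where 2.03% of all genes were lower. Pf4, a platelet chemokine encoded next to Ppbp, changed by -1.17 ± 0.33 (limma adjusted p = 0.00449). The adhesion receptor subunit Gp9 had -1.69 ± 0.44 and the platelet receptor Treml1 -1.57 ± 0.42 (limma adjusted p = 0.00248 and 0.00278). Gp1bb, with -0.50 ± 0.41, and Gp1ba, with -0.29 ± 0.60, did not pass. At day 21 Gp9, Gp1bb and Treml1 were 1.24 ± 0.49, 1.36 ± 0.45 and 1.33 ± 0.46 above day 1 (limma adjusted p = 0.0492, 0.0172 and 0.023). On that day 16% of all genes were higher. Pf4, at 0.62 ± 0.36, and Gp1ba, which went the other way at -0.90 ± 0.66, did not pass (limma adjusted p = 0.194 and 0.318). The mean level of the 5 markers was 0.20 and 0.51 on day 1, -0.82 and -0.56 on day 5 and 0.81 and 1.35 on day 21 in 4 and 8 mm defects. Of the 5 markers 0 were at the floor throughout a group. Among 11055 genes above the floor on at least 90% of the arrays, those with a pattern most like Ppbp over 93 arrays were Gp9 (Pearson r 0.67), Ly6g6c (0.65) and Treml1 (0.65). The part of platelet content in the Ppbp values was not tested.

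Cxcr2, the receptor that neutrophils use to read these ligands, fell by day 5, and from day 10 its difference from day 1 did not pass. Day 1 values were 0.00, 1.57 and 1.77 in 4 mm defects and 1.66, 3.02, 2.38, 1.79 and 2.43 in 8 mm defects. On day 3 the lowest, median and highest were -6.64, -0.06 and 1.04 in 4 mm defects and -5.84, -0.07 and 1.18 in 8 mm defects. On day 5 they were -2.94, -0.52 and 0.78 in 4 mm defects and -6.64, -1.94 and 0.08 in 8 mm defects. All arrays of days 3 and 5 were below the lowest 8 mm array of day 1, and only 4 mm rat 13 of day 1 overlapped them. The change was -2.44 ± 0.85 at day 3 (limma adjusted p = 0.0643), -3.20 ± 0.83 at day 5 (0.00212) and -2.75 ± 0.95 at day 7 (0.0251). At day 21 it was -1.25 ± 0.92, with a 95% interval from -3.08 to 0.58 (limma adjusted p = 0.321), and the day 21 medians were 0.51 and 0.78. The day 7 call was lost without 4 mm rat 17 (0.0534) or rat 18 (0.0622) of day 1, or 4 mm rat 14 (0.0902) or 8 mm rat 12 (0.0537) of day 7, and without the 10 arrays of high brain markers (0.0889).

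**Figure D3:**
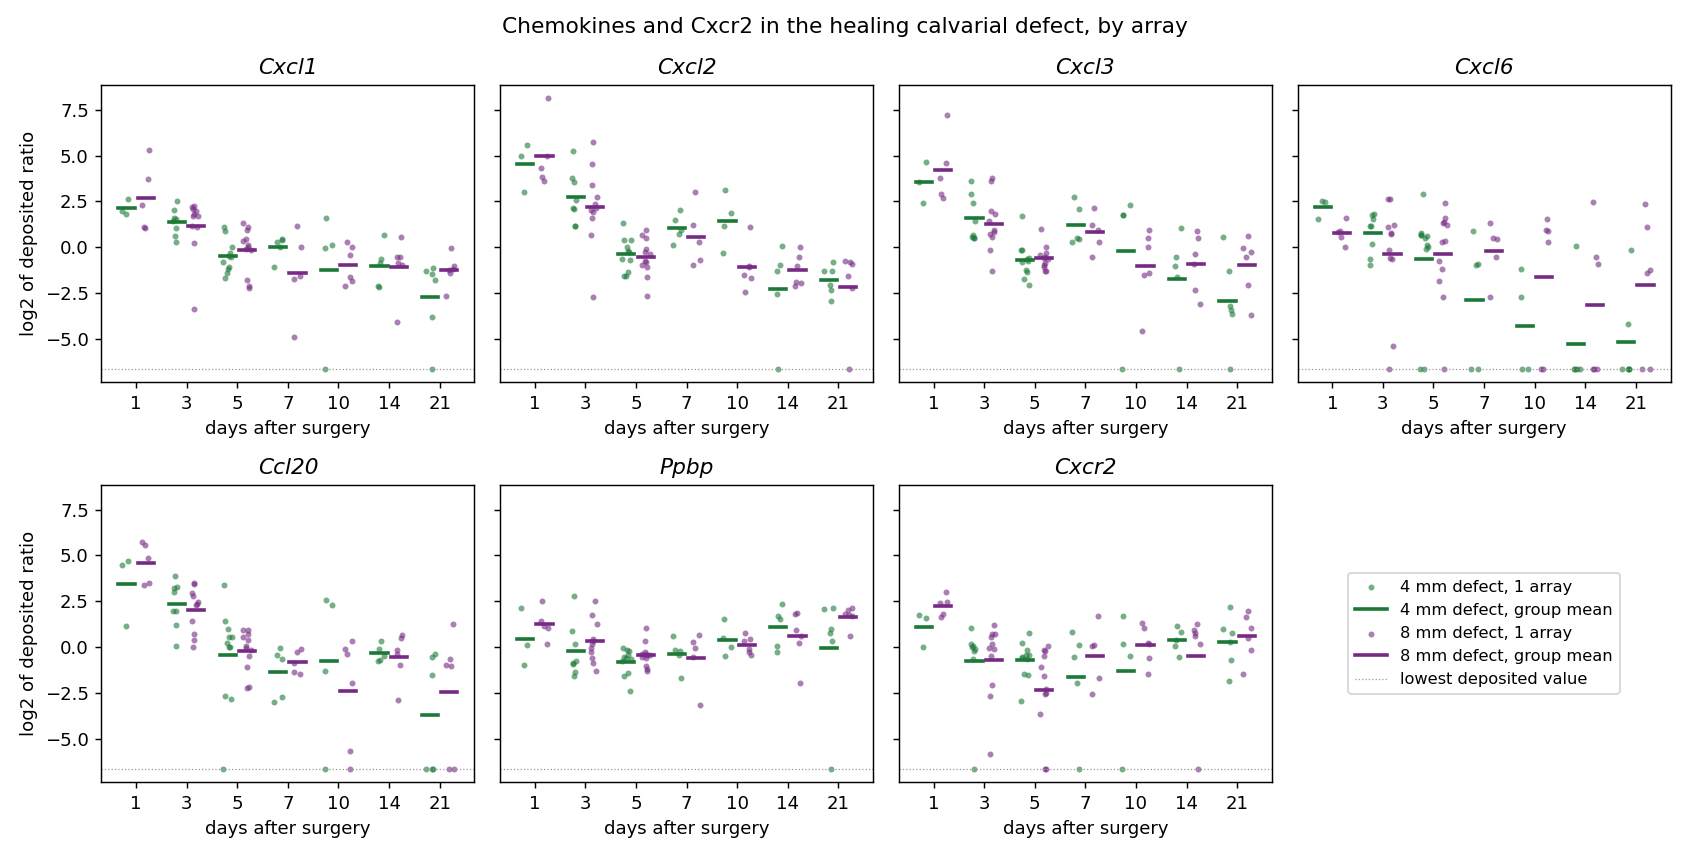
Log2 of the deposited ratio (vertical axis, 1 scale for all panels) by day after surgery for each gene; each point is 1 array, green for 4 mm and purple for 8 mm defects, bars are group means and the dotted line is the lowest deposited value. Cxcl1, Cxcl2, Cxcl3 and Ccl20 descend from day 1 to day 5, Cxcl6 has arrays at the lowest value on every day after day 1, and Ppbp and Cxcr2 at day 21 overlap their day 1 arrays.

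Other receptors were few: 4 of 6 listed were measured. Csf3r, the receptor for the growth factor that matures neutrophils, fell by 2.02 ± 0.66 at day 3 and fell by 2.29 ± 0.64 at day 5 (limma adjusted p = 0.04 and 0.00433). Of the 4 measured, Ackr2, Ccr6 and Cxcr1 did not pass against day 1 on any later day. Cxcr1, the second receptor for this ligand group, had group means between -4.38 and 0.74, arrays at the floor in 13 of 14 groups and no difference past the threshold.

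Part of the neutrophil markers fell over the same days. Of 16 listed markers 15 were measured, and 5, 9, 6, 6, 7 and 6 of them were lower than on day 1 at days 3, 5, 7, 10, 14 and 21. Of all genes 0.601, 2.03, 4.95, 6.07, 7.85 and 12.1% were lower on these days. At days 7 and 10, 1 marker was higher (the protease Mmp9, which macrophages and osteoclasts also make), where 20.4 and 12.5% of all genes were higher. S100a9 fell by 5.70 ± 0.43 at day 5 (limma adjusted p = 2.81e-19), the histamine-forming enzyme Hdc fell by 4.56 ± 0.46 (3.17e-13) and the histone-citrullinating enzyme Padi4 fell by 4.64 ± 0.55 (7.15e-11). The mean level of the 15 markers was 1.47 and 1.86 on day 1, -1.39 and -0.98 on day 5, and -0.68 and 0.72 on day 21, in 4 and 8 mm defects. Of the 15 markers 0 were at the floor throughout a group. At day 21 the change of S100a9 was -2.92 ± 0.47 and that of Cxcl2 -6.72 ± 0.70, a difference that was not tested. The part of neutrophil content in the chemokine and Cxcr2 values was not tested.

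Markers of other cells moved too. All 6 of 6 skeletal muscle markers were lower than on day 1 at each of days 7, 10, 14 and 21, where 4.95, 6.07, 7.85 and 12.1% of all genes were lower. In limma 0 of the muscle markers passed at days 3 and 5. Their mean level was 5.05 and 3.88 on day 1, 1.88 and 2.10 on day 5 and -2.31 and -3.04 on day 21 in 4 and 8 mm defects, and 0 of 6 were at the floor throughout a group. Ckm, the muscle creatine kinase, had a change of -9.76 ± 1.51 at day 21 (limma adjusted p = 3.17e-07). The part of muscle content in the chemokine values was not tested. Keratinocytes are a known source of Ccl20. Epidermal markers had a mean of 2.47 and 1.09 on day 1 in 4 and 8 mm defects and of -1.03 and -0.35 on day 21. The day 1 means of single arrays ran from 0.39 to 5.05 in 4 mm and from -1.19 to 6.10 in 8 mm defects. At each of days 5, 7, 10, 14 and 21, 3 of 6 measured markers were lower, against 2.03, 4.95, 6.07, 7.85 and 12.1% of all genes. The keratin Krt14 fell by 2.95 ± 0.64 at day 5 (limma adjusted p = 0.000228). Of the 6 epidermal markers 0 were at the floor throughout a group, and their part in the Ccl20 values was not tested. Of 6 macrophage markers 3, 4, 3, 1, 1 and 1 were higher than on day 1 at days 3, 5, 7, 10, 14 and 21, where 7.05, 21.4, 20.4, 12.5, 15.8 and 16% of all genes were higher. At day 21, 1 of the 6 was lower, where 12.1% of all genes were lower. Their mean level was -0.86 and -0.83 on day 1 and -1.48 and 0.01 on day 14 in 4 and 8 mm defects. The day 5 calls were led by Adgre1, the F4/80 antigen, with 2.32 ± 0.32 at day 5 (limma adjusted p = 8.19e-09).

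**Figure D4:**
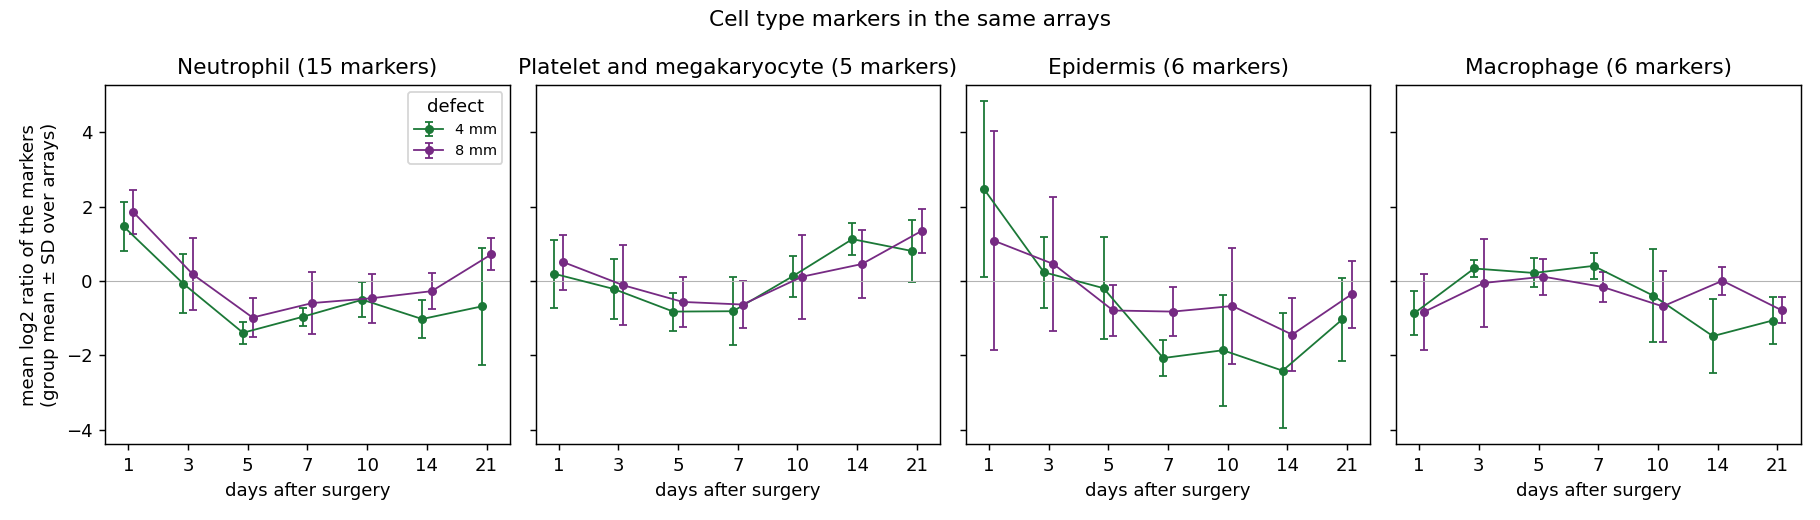
Mean log2 ratio of the measured markers of 4 cell types (vertical axis, group mean ± SD over arrays) by day after surgery in 4 mm (green) and 8 mm (purple) defects. Neutrophil and epidermal markers are highest on day 1, platelet markers dip at days 5 and 7 and end above their first level, and macrophage markers are lowest on day 14 in 4 mm and on day 1 in 8 mm defects.

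Some of the signals that act upstream of these chemokines also fell. Of 22 listed genes 21 were measured, and 3, 6, 7, 7, 10 and 13 were lower than on day 1 at days 3, 5, 7, 10, 14 and 21, and 0, 0, 1, 1, 0 and 1 higher. Of all genes 0.601, 2.03, 4.95, 6.07, 7.85 and 12.1% were lower on these days, and 7.05, 21.4, 20.4, 12.5, 15.8 and 16% higher. Il1b, the macrophage cytokine, fell by 2.56 ± 0.36 at day 5 (limma adjusted p = 1.62e-08), and its decoy receptor Il1r2, abundant on neutrophils, fell by 2.23 ± 0.50 (0.000378). Nfkbia, the NF-kappaB inhibitor and itself a target of that factor, fell by 1.18 ± 0.31 at day 3 and fell by 1.31 ± 0.30 at day 5 (limma adjusted p = 0.0068 and 0.000533). At day 21 Il6, a cytokine of the acute phase, had a change of -4.24 ± 0.52 from day 1 and the prostaglandin synthase Ptgs2 one of -4.25 ± 0.63 (limma adjusted p = 3.81e-10 and 1.22e-07). Il17a, the cytokine of Ccr6-bearing lymphocytes, fell by 3.62 ± 1.35 at day 21 (limma adjusted p = 0.035), with 6 values at the floor, and its receptor Il17ra rose by 2.21 ± 0.53 (0.000824).

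Genes of the other routes by which neutrophils are drawn and held moved in both directions. Of 9 measured attractants, receptors and enzymes, 0, 1, 0, 4, 3 and 2 were lower than on day 1 and 1, 1, 1, 1, 2 and 1 higher at days 3, 5, 7, 10, 14 and 21. Against the shares of all genes given above, the higher counts of this list lay near or below the background. The lower counts at days 10 and 14, 4 and 3 of 9, lay above it (6.07 and 7.85% of all genes). Cxcl12, the stromal chemokine that retains neutrophils in marrow, rose on each of these days, by 1.24 ± 0.32 at day 3 and 2.59 ± 0.36 at day 7 (limma adjusted p = 0.00519 and 1.22e-08). The formyl peptide receptor Fpr1, with 8 values at the floor, and the complement receptor C5ar1 had changes of -5.43 ± 1.47 and -1.52 ± 0.34 at day 21 (limma adjusted p = 0.00302 and 0.000348). Of 9 measured genes of adhesion to the vessel wall, 1, 1, 2, 2, 1 and 2 were higher on these days and 1 was lower, at day 21, which is near or below the share of all genes on most of these days. Vcam1 rose on all of these days, by 2.45 ± 0.30 at day 5 (limma adjusted p = 4.51e-10), whereas Icam1, with 0.56 ± 0.28, and Sele, with 1.39 ± 0.69, did not pass there (0.149 and 0.145).

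Chemokines that attract monocytes and lymphocytes gave a comparison within the same gene family. Of 13 listed genes 12 were measured: 3, 5, 2, 3, 5 and 7 were lower than on day 1 and 0, 2, 2, 1, 3 and 2 higher at days 3 to 21. Their median changes were -0.66, -0.34, -0.45, -0.61, -0.22 and -1.05. Against the shares of all genes given above, the lower counts lay above the background. The higher counts lay near or below it on all days but day 14. Ccl2, the main monocyte attractant, fell by 1.62 ± 0.37 at day 5 and fell by 3.27 ± 0.41 at day 21 (limma adjusted p = 0.000445 and 7.59e-10). The interferon-induced Cxcl10 was 2.42 ± 0.74 higher at day 5 and 5.26 ± 0.83 higher at day 14 (limma adjusted p = 0.0101 and 6.16e-07). Cx3cl1, a membrane-bound chemokine, was 4.12 ± 0.79 higher at day 21 (limma adjusted p = 2.71e-05). No test compared these genes with the neutrophil attractants as groups.

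After day 5 no step from one day to the next passed the threshold for any of the 7 genes. In limma 4 of 7 were lower at day 5 than at day 3 (Cxcl1, Cxcl2, Cxcl3 and Ccl20), against 0.488% of all genes. Of the 7 genes 0 changed from day 7 to 10, from day 10 to 14 or from day 14 to 21, against 0.213, 0.914 and 1.41% of all genes in either direction; 1 of 7 had an unadjusted p under 0.05 at each step. The step of Cxcl3 from day 7 to 10 was -1.61, and that of Ccl20 from day 14 to 21, given above, was wider. Cxcl2 between days 10 and 14 was among those with a low unadjusted p, with -1.93 ± 0.67 (limma adjusted p = 0.155), and it passed without the 7 arrays of low level.

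Defect size made no difference that passed the threshold for any of the 7 genes. In limma 0 of 7 differed between 8 and 4 mm at days 1, 3 and 5, where 0% of all genes did, and 0 of 7 at days 7, 10, 14 and 21, where 0.557, 0.382, 1.35 and 2.44% of all genes did. At an unadjusted p under 0.05 the counts were 0, 0, 0, 0, 1, 0 and 1 at days 1 to 21. Averaged over the days 0 of 7 differed, with 0 at an unadjusted p under 0.05, against 0.426% of all genes, and the size difference varied by day for 0 of 7, also 0 unadjusted, against 0.607% of all genes. The intervals are wide: for Cxcl2 at day 1 the difference of 0.45 had a 95% interval from -1.74 to 2.65, and for Ccl20 1.16 with -1.87 to 4.20. Over all days they narrowed to -1.04 to 0.30 for Cxcl2, -0.53 to 0.80 for Cxcl1 and -0.07 to 2.44 for Cxcl6.

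Size differences of Cxcl2 and Ppbp had an unadjusted p under 0.05. At day 10 Cxcl2 was -0.34, 3.12, 1.85 and 1.16 in 4 mm defects and ran from -2.45 to 1.13 with a median of -1.28 in 8 mm defects. The 8 mm arrays were all below the 4 mm mean, and 1 array of 4 mm lay within their range. The 8 minus 4 mm difference was -2.55 ± 0.98 (limma p = 0.0108, adjusted p = 0.337). At day 21 Ppbp ran from 0.58 to 2.13 in 8 mm defects with a median of 1.77, and from the floor to 2.13 with a median of 0.88 in 4 mm defects, where 1 array was at the floor. That difference was 1.72 ± 0.74 (limma p = 0.0228, adjusted p = 0.219).

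Taken by size, the days differed in limma's F test for 5 of 7 genes in 4 mm defects, against 36% of all genes, and for 6 of 7 in 8 mm defects, against 43.2%. Cxcl1, Cxcl2, Cxcl3 and Ccl20 passed in both sizes, with adjusted p of 0.000334 or less. Cxcl6 passed in 4 mm (adjusted p = 0.000575) and not in 8 mm defects (0.334); its 4 mm arrays were at the floor on 2 of 4, 4 of 5 and 4 of 6 at days 10, 14 and 21, and its size-by-day term had an adjusted p of 0.676. Cxcr2 passed in 8 mm (0.0087) and not in 4 mm defects (0.475), with a size-by-day p of 0.73. Ppbp passed in 8 mm defects (0.0455), not in 4 mm defects (0.287), with a size-by-day p of 0.789. Its 8 mm call was lost without 8 mm rats 11 (0.0738), 13 (0.0592), 14 (0.0549) or 16 (0.0536) of day 1 or 8 mm rats 10 (0.07) or 12 (0.055) of day 7, after quantile normalization (0.0776) and without the 7 arrays of low level (0.0817).

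Across all 14 groups ordered by mean level, the 8 mm group of day 1 came highest for Cxcl1, Cxcl2, Cxcl3, Ccl20 and Cxcr2, and the 4 mm group of day 1 for Cxcl6. The lowest group was 4 mm of day 21 for Cxcl1, Cxcl3 and Ccl20, 4 mm of day 14 for Cxcl2 and Cxcl6, 4 mm of day 5 for Ppbp and 8 mm of day 5 for Cxcr2. Of the 13 steps between neighbouring groups, 1 was wider than the larger of both groups' SDs for each gene other than Ppbp, which had 0. For Cxcl1, Cxcl2 and Cxcl3 that step lay between the day 1 groups and day 3.

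The genes varied together to different degrees over the 93 arrays, which share days and array level. Pearson r was 0.78 between Cxcl2 and Cxcl3, 0.71 between Cxcl1 and Cxcl2, 0.68 between Cxcl1 and Cxcl3 and 0.66 between Cxcl1 and Ccl20. After removal of the group means these were 0.56, 0.51, 0.45 and 0.37. Ppbp had an r of 0.05 with Cxcl1 and 0.32 with Cxcr2. Cxcl6 had an r of 0.22 with Cxcl2, and -0.25 after removal of the group means. By the same measure the genes most like Cxcl1 were Myc (0.82), a transcription factor of growth, Ier3 (0.79) and Upp1 (0.78); those most like Cxcl2 were Enpp3 (0.85), Slpi (0.84), an inhibitor of neutrophil elastase, and the metallothionein Mt1 (0.78). Cxcl3 had Slpi (0.71), Enpp3 (0.71) and Pram1 (0.70), and Ccl20 had the metallothioneins Mt2A (0.73) and Mt1 (0.70) and the protease Adam8 (0.65). The best values for Cxcl6 (Stam2, 0.54) and Cxcr2 (Stx11, 0.57, then Ltb, 0.56, and the neutrophil granule peptide Camp, 0.55) were lower.

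The neighbours of the chemokine cluster on chromosome 14 gave a local comparison. At day 5 none of the flanking genes Ereg, Epgn, Mthfd2l, Rassf6 and Afm passed against day 1. Their differences were 0.09 ± 1.55, -1.81 ± 1.47, -0.35 ± 0.85, -0.12 ± 0.94 and -2.27 ± 1.43, with 16, 11, 0, 0 and 7 values at the floor. The interval of each flanking gene included the changes of Pf4 (-1.17 ± 0.33) and Ppbp (-1.47 ± 0.54), which passed. Day 5 therefore cannot show whether the flanking genes fell as much as Pf4 and Ppbp. Within the cluster, Cxcl1, Cxcl2, Cxcl3, Pf4 and Ppbp were lower and Cxcl6, with -1.99, did not pass. At day 21 Rassf6 fell by 3.77 ± 1.04 (limma adjusted p = 0.00373), with 5 values at the floor, and the adjacent Cxcl6 had -5.10 ± 1.32. Pf4 and Ppbp, on the other side of Cxcl6, had 0.62 and -0.04, with 1 Ppbp value at the floor. On other days Mthfd2l passed at day 14, with -3.55 ± 0.95 (limma adjusted p = 0.00347) and 4 values at the floor. Afm passed at day 7 with -4.19 ± 1.64 and at day 10 with -5.13 ± 1.65 (limma adjusted p = 0.0488 and 0.0197), with 6 and 8 values at the floor.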

How the data were processed

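Per the labels' protocols, RNA of each defect was purified on columns, checked for integrity, labelled with Cy3 and hybridised to Agilent rat whole-genome arrays. The authors deposited linear ratios for 41090 probes on 93 arrays, with a lowest value of 0.01 (13.4% of values) and a median of 1 for 87.8% of probes, within 0.01. Scaling, background correction and scanner settings: not given in the sources used here. Signal over background is therefore unknown, and the number of arrays limits the precision.

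Log2 of the deposited ratio was taken with no pseudocount. The tests had been planned for values already on a log2 scale and were otherwise kept. Symbols came from the platform annotation (20932 probes), updated through RefSeq accessions for 17424 probes. Of several probes (3880 of 15975 genes) the one at the floor on the fewest arrays, then with the largest interquartile range, was used; the planned rule was the largest interquartile range alone and is now an alternative. One cell-means model of 14 groups of day and defect size was fitted across all genes with limma 3.58.1 in R 4.3.3 (prior df 1.9). Later days were set against day 1 and against the preceding day, and 8 against 4 mm within and over the days, with two-sided moderated tests; F tests covered the days in each size and the interaction. The script was tested on simulated data with normal spread and no floor, so that test does not cover genes often at the floor.

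The genes, lists and tests were chosen with earlier results of these data known. Named were all 7 genes, up to 4 genes of a list with the largest change among those passing, defining markers, and the 3 genes most like each member by Pearson r. Other genes named in the text were chosen after their values were seen. Rat numbers named arrays and were not used to pair them in the main model. Of 34 same-numbered pairs 2 had a correlation of deviations over 0.1 (median 0.01, highest 0.34). These correlations cannot settle whether same-numbered defects of a day shared an animal. P-values measure the spread between these defects. Alternatives were other scalings, probe rules, floors, filters, weights, blocks and sets of arrays.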

Additional observations from a re-analysis of the deposited data

Results flagged for a closer look

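In 9 of 70 groups of 4 to 10 arrays (7 genes by group), 1 array lay far from the others of its group by Dixon's gap rule; chance flags about 1 in 20 groups, and values at the floor (log2 -6.64) make such gaps wide. In Cxcl1, 4 mm rat 15 of day 7 was at -1.10 with the next value at 0.01, and 8 mm rat 12 of day 14 at -4.08 with the next at -0.99. Cxcl2 was at the floor (-6.64) in 8 mm rat 12 of day 21, where the next value was -2.21, and Cxcl3 at the floor (-6.64) in 4 mm rat 10 of day 10, where the next was 1.74. In Cxcl6, 4 mm rat 17 of day 14 was the only array above the floor, at 0.06, with the other 4 at -6.64. Ppbp was at -6.64 in 4 mm rat 15 of day 21 (next 0.35) and at 0.58 in 8 mm rat 11 of day 21 (next 1.68). Cxcr2 was at -6.64 in 4 mm rat 22 of day 3 (next -0.63) and in 8 mm rat 11 of day 14 (next 0.15). The array of 4 mm rat 10 of day 10 had 4 of the 7 genes at the floor and belonged to the 7 arrays of low level.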

How the results depend on the processing

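Of 937 values of the 43 called results under the alternatives, 887 kept their direction and stayed past the threshold, 41 kept the direction and missed it, and 9 reversed. All 9 reversals were those of Cxcl3 with other probe choices: with the probe of the largest interquartile range the change from day 1 was 2.85, 2.94, 4.36, 3.88, 2.92 and 5.08 at days 3, 5, 7, 10, 14 and 21 and 0.09 from day 3 to 5, and with the mean of all probes 0.20 at day 3 and 0.74 at day 7. Counts of members moved in 17 of 462 cases. For day 3 against day 1 the count of 2 became 0 after quantile normalization, 4 with values under 0.25 raised and 4 with array weights. It was 1 with the mean of all probes, with rat number as a fixed replicate block and with the probe of the largest interquartile range. It was 0 to 2 when each array of day 1 was left out in turn. For day 7 against day 5 the count of 0 became 2 after quantile normalization, 1 with each array centred, 2 with values raised, 1 with array weights, 2 with only the groups compared and 1 without the 7 arrays of low level; without those arrays it was also 1 for day 14 against 10 (Cxcl2) and 1 for day 21 against 14 (Ccl20). With 1 array left out, the counts against day 1 ran from 5 to 6 at days 5 and 10 and from 4 to 5 at day 7.

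With the rat number as a replicate block the calls of Cxcl3 at day 3 (adjusted p = 0.075), Ppbp at day 5 (0.14) and over the days in 8 mm defects (0.106) and Cxcr2 at day 7 (0.0594) were lost; the numbers do not pair the samples, and as a random term within a day they had a correlation of 0.0406. The cause of these shifts was not tested. The floor limits what can be said of Cxcl6 and of late Ccl20, whose sizes depend on where it lies. The share of all probe values at the floor also stepped up between day 5 and day 7. It was 10 to 10.9% on the arrays of days 1, 3 and 5, and 11.8 to 23.8% on most later arrays. The exceptions, with 10.1 to 10.4%, were 8 mm rats 10, 12 and 14 of day 7 and 8 mm rat 11 of day 10. The late falls from day 1 and the step from day 5 to 7 cross this change, and its part in them was not tested.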
